A study of Macaca fascicularis with 16 samples.

Results

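What tamoxifen does to an endometrium that also receives estradiol was read from 8 of the 16 expression arrays of the series: 4 from animals given both drugs, called the combination here, and 4 from animals given estradiol alone. Each array held total RNA of frozen endometrium from 1 postmenopausal female cynomolgus macaque (Macaca fascicularis), and the animals had been randomized, so the arrays of an arm are separate animals. Per 1800 kcal of food, the estradiol arm received 0.25 mg of the micronized hormone and the combination arm the same dose plus 20 mg of tamoxifen, both for 4 months. The other 8 arrays were 4 from placebo animals, called control, and 4 from animals given the same dose of tamoxifen without estradiol. They entered the fit, where they add to the estimate of spread and so affect which genes pass. Otherwise they only set the changes in context. The animals' ages are not given in the sources used here. As each sample is a piece of tissue with many cell types, fewer cells of a type and less RNA per cell cannot be told apart in any value below. Of the 22 symbols each on the lists of epithelium and stroma markers, 15 and 19 were among the genes measured, and the estrogen receptor gene ESR1 and the progesterone receptor gene PGR were measured in both arms.

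Estradiol acts on the uterus through the estrogen receptor, a transcription factor that, once bound by hormone, drives division of the glandular epithelium and growth of the stroma and induces genes such as that of the progesterone receptor. Tamoxifen binds the same receptor. It is used against breast cancer because it opposes estrogen there, but in the uterus it can act as a weak estrogen, so a selective estrogen receptor modulator may block, replace or add to the hormone's effect gene by gene. The comparison addresses which of these occurred when tamoxifen was given on top of low-dose estradiol.

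With tamoxifen added, 5 of 15 mitosis genes, 6 of 14 DNA replication genes, MYC, the co-receptor gene GFRA2 and the noncoding RNA H19 were lower, while the neuropeptide gene NPY, the mucosal chemokine gene CXCL17 and the gene TAGAP, which encodes a GTPase-activating protein of T cells, were higher. Signals were compared as log2(signal + 4.80), and every change is a difference of mean log2 values with its standard error (SE) from a limma fit to all 16 arrays. A gene passed at a Benjamini-Hochberg adjusted p under 0.05 over 31659 probe sets, and was followed through its brightest probe set. Of 10705 genes, 142 passed (1.33%), 94 lower (0.878%) and 48 higher (0.448%). The median change over all genes was -0.023, and 54% of genes had a negative sign. The 4 arrays of one arm all lay above the 4 of the other in 1118 genes (10.4%), 683 lower (6.38%) and 435 higher (4.06%) with the combination.

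The number of genes past the threshold depended on single arrays. In limma fits without 1 of the 4 combination arrays, 31, 28, 26 and 56 genes passed, and without estradiol 1, 2, 3 or 4 the counts were 18, 70, 462 and 57. All 142 genes kept their sign in these 8 fits, 14 of them passed in every fit, and 91 passed in only 1 or 2. The 14 were GFRA2, OLFML2B, H19, IL15, PCOLCE, SPSB2, MCM2, BORA, SEC24D and CAPZA2, all lower with the combination, and CXCL17, TAGAP, SCUBE2 and DAPK1, all higher. SPSB2 fell by 1.13 on its brightest probe set, but a dimmer one stood at -0.014 (limma adjusted p = 0.98). A dimmer probe set of DAPK1 stood at 0.36 (limma adjusted p = 0.415). Dimmer probe sets of H19, IL15 and TAGAP shared the sign of the brightest. BORA, SPSB2, CAPZA2 and DAPK1, and below KIF2C, MCM3 and PCNA, were chosen after their values were seen. The number of these 8 fits in which a gene passed is given with it.

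**Figure D1:**
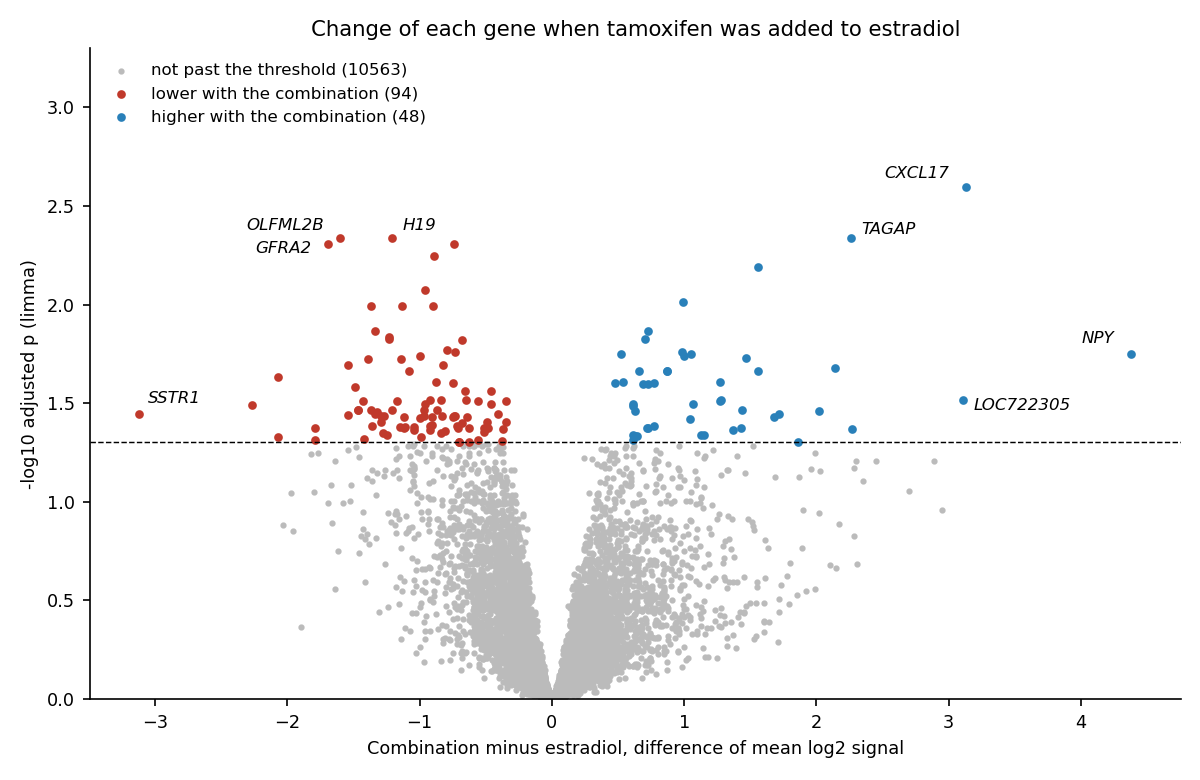
Each point is 1 of 10705 genes; the horizontal axis is the combination minus estradiol difference of mean log2 signal, the vertical axis -log10 of the limma adjusted p, and the dashed line the threshold of 0.05. The 94 lower genes (red) reach -3.12 at SSTR1, and the 48 higher genes (blue) reach 4.38 at NPY.

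Before the gene groups, 2 arrays of the estradiol arm need naming. For a list's score on an array, the log2 deviations of its measured genes from their own means over all 16 arrays were averaged. The smooth muscle score was 0.25, 0.30 and 0.30 in estradiol 1, 2 and 3 but -2.78 in estradiol 4, and lay from 0.19 to 0.41 in the combination arrays; the myosin heavy chain gene MYH11 was at 8.42 in estradiol 4 and from 13.10 to 13.12 in the other 3. The same array had the highest epithelium score of its arm, 0.92 against -0.20 to 0.35. Estradiol 3 had the lowest mitosis score of its arm, 0.30 against 1.14 to 1.38. The 3' to 5' signal ratios of the actin, GAPDH and EF1a control probe sets, signs of RNA integrity, differed between the arms by -0.023, 0.074 and -0.042 on the log2 scale, with two-sided exact permutation p = 0.857, 0.143 and 0.486 (0.857, 0.429 and 0.729 adjusted over these 3), where 0.0286 is the smallest p that 4 against 4 arrays allow. By array, the actin ratio was highest in estradiol 4, at 0.83 on the log2 scale. It was 0.544, 0.407 and 0.504 in estradiol 1, 2 and 3 and from 0.484 to 0.644 in the combination arrays. The part of estradiol 3 and estradiol 4 in the counts of genes was not tested beyond the fits without them.

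Genes of cell division were lower with the combination. Of 15 measured mitosis genes 5 fell and 0 rose: CDK1, the kinase that starts mitosis, KIF4A and KIF2C, motor proteins of the chromosomes, MKI67, whose product Ki-67 marks cycling cells, and CENPF, a kinetochore protein. Their median change over the 15 was -1.34, against -0.023 over all genes, and 14 of the 15 had a negative sign. In 9 of the 15 all 4 combination arrays lay below all 4 estradiol arrays. Over all genes, 0.878% were called lower and 6.38% lay apart in this way. The 5 mitosis calls did not hold without single arrays. Without estradiol 3, 13 mitosis genes passed, these 5 among them, but 0 passed when any of the other 7 arrays alone was left out.

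MKI67 was at 7.42, 7.21, 6.23 and 7.37 in estradiol 1 to 4 and at 5.58, 5.70, 5.53 and 5.93 in combination 1 to 4. Its lowest estradiol value, in estradiol 3, was still above every combination array. The change was -1.37 (SE 0.28, adjusted p = 0.0341), or 2.59-fold lower. CDK1 was at 8.21, 7.62, 7.49 and 8.20 with estradiol and at 6.27, 6.10, 5.58 and 6.41 with the combination. The groups did not overlap, and the change was -1.79 (SE 0.40, adjusted p = 0.0425). KIF4A was at 7.20, 7.15, 5.99 and 7.06 and then at 5.24, 5.56, 5.22 and 5.66, a change of -1.43 (SE 0.29, adjusted p = 0.0310) that was -1.72 without estradiol 3. Its values in combination 1 and 3 were dim, below 5.36, the lowest mean over all arrays of a probe set tested. CENPF and KIF2C fell by 1.34 (SE 0.28, adjusted p = 0.0357) and 1.28 (SE 0.29, adjusted p = 0.0447).

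Several well-known division genes did not pass. TOP2A, the topoisomerase of dividing cells, had values of 8.90, 8.92, 7.06 and 8.95 with estradiol and 6.73, 6.51, 5.77 and 6.71 with the combination; the groups did not overlap, but the change of -2.03 (95% interval -3.40 to -0.65) had adjusted p = 0.131. Cyclin B1 (CCNB1), the partner of CDK1, was at -1.48 (95% interval -2.23 to -0.73, adjusted p = 0.0529), and estradiol 3, at 7.33, lay below the highest combination array, at 7.57. The kinetochore gene ZWINT was at -1.82 (adjusted p = 0.0573) and the cyclin gene CCNB2 at -1.69 (adjusted p = 0.102). The exception in sign was PTTG1, which encodes securin, at 0.52 (SE 0.28, adjusted p = 0.377) by its brightest probe set. Outside the lists, NCAPG, a condensin subunit, fell by 1.47 (SE 0.30, adjusted p = 0.0342) and KIF23, a motor of cell separation, by 1.42 (SE 0.33, adjusted p = 0.0481); both passed in 1 of the 8 fits, that without estradiol 3. BORA, an activator of the mitotic kinase PLK1, fell by 0.90 (SE 0.14, adjusted p = 0.0102) and passed in all 8.

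**Figure D2:**
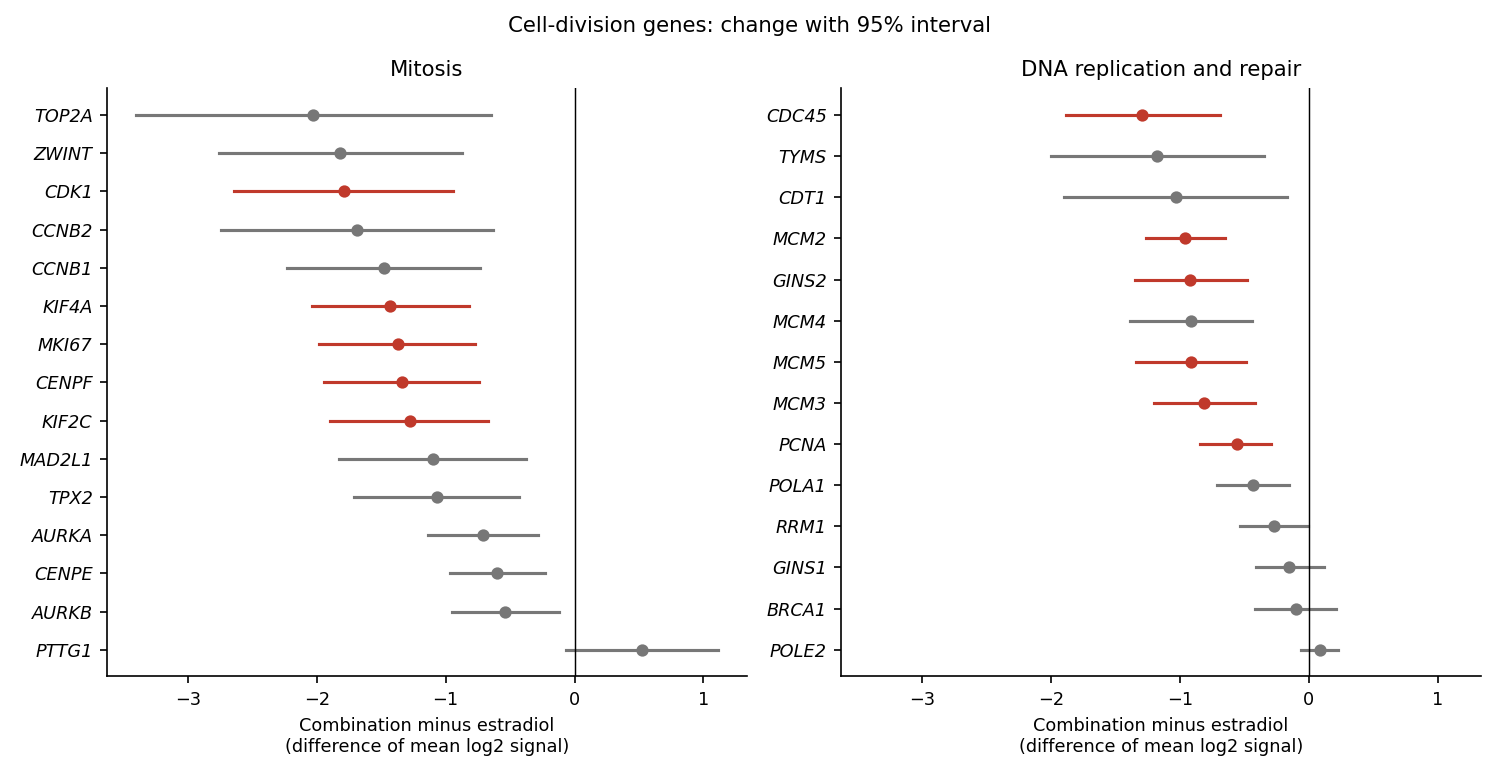
Points are combination minus estradiol differences of mean log2 signal for the 15 mitosis and 14 DNA replication genes measured, bars their 95% intervals from the limma fit, and red marks an adjusted p under 0.05. All genes but PTTG1 and POLE2 lie left of 0, and 11 are red.

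Genes of DNA replication showed the same direction with smaller changes. Of 14 measured, 6 fell and 0 rose: the helicase subunits MCM2, MCM3 and MCM5, the helicase activators CDC45 and GINS2, and PCNA, the sliding clamp of the polymerases. The median change of the 14 was -0.86, and in 10 of them the arms did not overlap, always with the combination lower. Over all genes, 0.878% were called lower and 6.38% lay apart in this direction. MCM2 was at 9.87, 9.64, 9.18 and 9.49 with estradiol and at 8.68, 8.65, 8.42 and 8.61 with the combination. Every combination array lay below every estradiol array, within a narrow range, and the change of -0.96 (SE 0.14, adjusted p = 0.00847) passed in all 8 fits. PCNA was at 10.52, 10.38, 9.88 and 10.29 and then at 9.74, 9.71, 9.52 and 9.85, a change of -0.56 (SE 0.13, adjusted p = 0.0488). CDC45 fell by 1.29, MCM5 by 0.91, GINS2 by 0.92 and MCM3 by 0.81 (adjusted p from 0.0396 to 0.0440). MCM5 passed in 2 of the 8 fits, without combination 4 and without estradiol 3; CDC45, GINS2, MCM3 and PCNA passed only without estradiol 3. Without estradiol 3, 8 members of the list passed; without combination 1, 2 or 3 or estradiol 1, 2 or 4, only 1 did, and without combination 4, 2 did. MCM4 at -0.91 (adjusted p = 0.0587) and TYMS, thymidylate synthase, at -1.18 (adjusted p = 0.144) did not pass.

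Upstream of replication, 2 of 14 measured genes of the G1 phase fell and 0 rose. MYC, the growth-promoting transcription factor, was at 10.21, 9.95, 10.17 and 9.40 with estradiol and at 8.79, 8.65, 8.79 and 8.59 with the combination. The combination arrays were tightly grouped below all estradiol arrays, and the change was -1.23 (SE 0.20, adjusted p = 0.0149), 2.34-fold lower. MYC passed in 7 of the 8 fits and missed in that without estradiol 1 (adjusted p = 0.0629, change -1.14). CCNE2, the cyclin that drives entry into S phase, fell by 0.97 (SE 0.21, adjusted p = 0.0368) and passed only without estradiol 3. CCND1, the cyclin D1 gene, had adjusted p = 0.283. The median change of the G1 list was -0.19.

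The lowest changes of named genes lay outside the cell cycle. SSTR1, a somatostatin receptor, was at 8.23, 8.43, 7.66 and 5.40 with estradiol and at 5.17, 4.38, 4.96 and 2.72 with the combination. All its combination values lay below 5.36, the lowest mean of a probe set tested, so the size of its change rests on dim signals. The fourth array of each arm was its lowest, and estradiol 4 was only just above the highest combination array. The change was -3.12 (SE 0.66, adjusted p = 0.0358), with 2 of 8 fits passing, those without estradiol 3 and without estradiol 4. GFRA2, a co-receptor for the growth factor neurturin, was the most even: 8.49, 8.53, 8.31 and 8.45 with estradiol and 7.07, 6.75, 6.74 and 6.45 with the combination. All combination arrays lay well below the estradiol arrays, and the change was -1.69 (SE 0.24, adjusted p = 0.00495), 3.23-fold lower. It passed in all 8 fits. OLFML2B, a secreted olfactomedin-domain protein, was at 9.57, 9.31, 9.36 and 9.92 and then at 8.47, 7.88, 7.48 and 7.94, without overlap. It fell by 1.60 (SE 0.22, adjusted p = 0.00460), also in all 8 fits.

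H19, an imprinted long noncoding RNA abundant in fetal tissue and uterus, was at 13.25, 12.91, 12.74 and 13.13 with estradiol and at 11.80, 12.17, 11.56 and 11.65 with the combination. No array overlapped, and it fell by 1.21 (SE 0.17, adjusted p = 0.00460), in all 8 fits. Its imprinted neighbour IGF2, a growth factor gene, stood at -0.63 (adjusted p = 0.141). MEST, another imprinted gene, fell by 0.92 (SE 0.20, adjusted p = 0.0411) with overlapping arms and passed in 2 of 8 fits, without combination 1 and without estradiol 3. GRB10, an imprinted adaptor that restrains insulin signalling, rose by 0.77 (SE 0.15, adjusted p = 0.0249), passing without combination 4 and without estradiol 3. H19, MEST and GRB10 were chosen after their values were seen.

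On the list of keratinized and squamous epithelium 2 of 11 measured genes fell and 0 rose: DMKN, dermokine, a secreted protein of stratified epithelium, by 2.27 (SE 0.46, adjusted p = 0.0325) and IL1A, the alarm cytokine interleukin-1 alpha, by 2.07 (SE 0.39, adjusted p = 0.0232). DMKN was at 10.60, 10.50, 10.24 and 11.75 with estradiol and at 7.78, 8.26, 8.96 and 9.01 with the combination, all lower. IL1A ran from 6.54 in estradiol 3 to 8.27 in estradiol 1 and was at 5.15, 4.79, 5.35 and 4.79 with the combination, again without overlap. These combination values of IL1A were also dim, below 5.36, the lowest mean of a probe set tested. The list did not move as a whole: its median change was -0.022, and its galectin gene LGALS7B stood at 2.45 (adjusted p = 0.0619) and the gap junction gene GJB6 at 2.70 (adjusted p = 0.0887). DMKN passed in 2 of 8 fits, without combination 4 and without estradiol 3, and IL1A in 3, without estradiol 2, 3 or 4.

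TGFBI, an adhesion protein of the matrix induced by TGF-beta, was at 13.22, 12.64, 12.17 and 13.39 with estradiol and at 11.25, 10.11, 10.37 and 11.41 with the combination. The arms did not overlap, and it fell by 2.07 (SE 0.47, adjusted p = 0.0471). CYP1B1, a cytochrome P450 that hydroxylates estradiol, was at 10.95, 10.54, 9.70 and 10.57 and then at 9.36, 7.89, 8.16 and 9.20, and fell by 1.79 (SE 0.41, adjusted p = 0.0484). Both passed only in the fit without estradiol 3. CYP1B1 was the only call among the 4 measured genes of steroid and estrogen metabolism. The others of the 15 lowest changes were ADAMTS19, a secreted metalloprotease, at -1.54, TMSB15A, an actin-binding thymosin, at -1.49, and B3GNT5, which starts the sugar chains of lacto-series glycolipids, at -1.39. They had adjusted p = 0.0202, 0.0263 and 0.0189 and passed in 5, 2 and 5 of 8 fits.

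Among 25 measured extracellular matrix genes 3 fell and 0 rose: FN1, fibronectin, LOXL2, an enzyme that cross-links collagen, and LAMA2, a laminin chain of basement membranes. FN1 was at 12.53, 11.92, 11.86 and 12.76 with estradiol and at 10.98, 10.72, 10.12 and 11.36 with the combination. The arms did not overlap, and the change was -1.47 (SE 0.30, adjusted p = 0.0342). LAMA2 fell by 1.36 (SE 0.30, adjusted p = 0.0415), a change that was -1.02 without estradiol 4, and LOXL2 by 1.00 (SE 0.21, adjusted p = 0.0375). FN1 passed in 3 fits, without combination 4, estradiol 2 or estradiol 3, and LOXL2 and LAMA2 in 2, without estradiol 2 or 3. Without any of combination 1, 2 or 3, estradiol 1 or estradiol 4, 0 members of the list passed, and without estradiol 3 there were 5. The list's median change was -0.26. The chains of type I, III and V collagen did not pass: COL1A1 was at -0.67 (95% interval -1.17 to -0.16, adjusted p = 0.174), COL3A1 at -0.85 (adjusted p = 0.187) and COL5A2 at -0.44 (adjusted p = 0.0919).

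Outside the matrix list, 4 further genes were chosen after their values were seen, so they say nothing of a group. PCOLCE, which speeds the trimming of procollagen outside the cell, was at 11.12, 10.65, 10.31 and 10.36 with estradiol and at 9.75, 9.02 and 9.18 in combination 1, 2 and 4, with combination 3 lowest, without overlap, and fell by 1.37 (SE 0.21, adjusted p = 0.0102). SEC24D, a coat protein of the vesicles that carry procollagen out of the endoplasmic reticulum, was at 10.22, 9.69, 9.67 and 9.63 and then at 8.92, 8.91, 8.75 and 9.06. It fell by 0.89 (SE 0.13, adjusted p = 0.00568). Both passed in all 8 fits. FKBP10, a collagen-folding isomerase, fell by 0.68 (SE 0.11, adjusted p = 0.0152) and passed in 6, and KDELR3, a receptor that returns proteins to the endoplasmic reticulum, by 0.88 (SE 0.17, adjusted p = 0.0247), passing without estradiol 3 and without estradiol 4. Of 16 measured genes of the unfolded protein response 0 passed, where 1.33% of all genes did, so a list of this size would be likely to hold none. Its median change was -0.083.

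In the stroma, HAND2, a transcription factor of uterine stroma that restrains epithelial growth, fell by 0.70 (SE 0.16, adjusted p = 0.0495), the only call among 19 measured stroma markers, and passed only without estradiol 3. NR2F1, a nuclear receptor on the list of uterine development, fell by 0.73 (SE 0.13, adjusted p = 0.0174) and passed in 6 of 8 fits. HAND2 and NR2F1 were the 2 calls among 23 measured genes of that list, whose median change was -0.23. VCAM1, an adhesion molecule that holds leukocytes, was at 9.85, 9.16, 9.68 and 9.74 with estradiol and at 8.53, 7.88, 8.37 and 9.06 with the combination, without overlap, and fell by 1.14 (SE 0.20, adjusted p = 0.0189), in 4 of 8 fits; it was chosen after its values were seen.

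The higher genes were fewer but had the largest change. NPY, which encodes the secreted neuropeptide Y, was at 6.06, 7.08, 6.88 and 4.57 with estradiol and at 10.85, 9.18, 11.19 and 10.88 with the combination. Estradiol 4 was low and combination 2 lowest of its arm, but the arms lay far apart, and the change was 4.38 (SE 0.76, adjusted p = 0.0178), 20.8-fold higher. It passed in 5 of 8 fits and missed without combination 1, combination 3 or estradiol 1. CXCL17, a chemokine of mucosal surfaces, was at 5.65, 6.04, 5.46 and 4.84 and then at 9.53, 7.53, 8.84 and 8.60. The lowest combination array was above every estradiol array, and CXCL17 rose by 3.13 (SE 0.33, adjusted p = 0.00253), 8.75-fold, in all 8 fits.

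TAGAP was at 8.11, 7.38, 8.16 and 7.67 with estradiol and at 10.16, 9.87, 10.53 and 9.80 with the combination. The arms did not overlap, and it rose by 2.26 (SE 0.30, adjusted p = 0.00460), 4.78-fold, in all 8 fits. SCUBE2, a secreted protein that helps release hedgehog ligands, was at 7.73, 7.84, 8.08 and 7.07 and then at 9.45, 9.13, 9.37 and 9.02, all higher. It rose by 1.56 (SE 0.23, adjusted p = 0.00647), also in all 8. DAPK1, a kinase that promotes cell death, rose by 0.99 (SE 0.15, adjusted p = 0.00975) in all 8. Its dimmer probe set stood at 0.36 and did not pass.

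**Figure D3:**
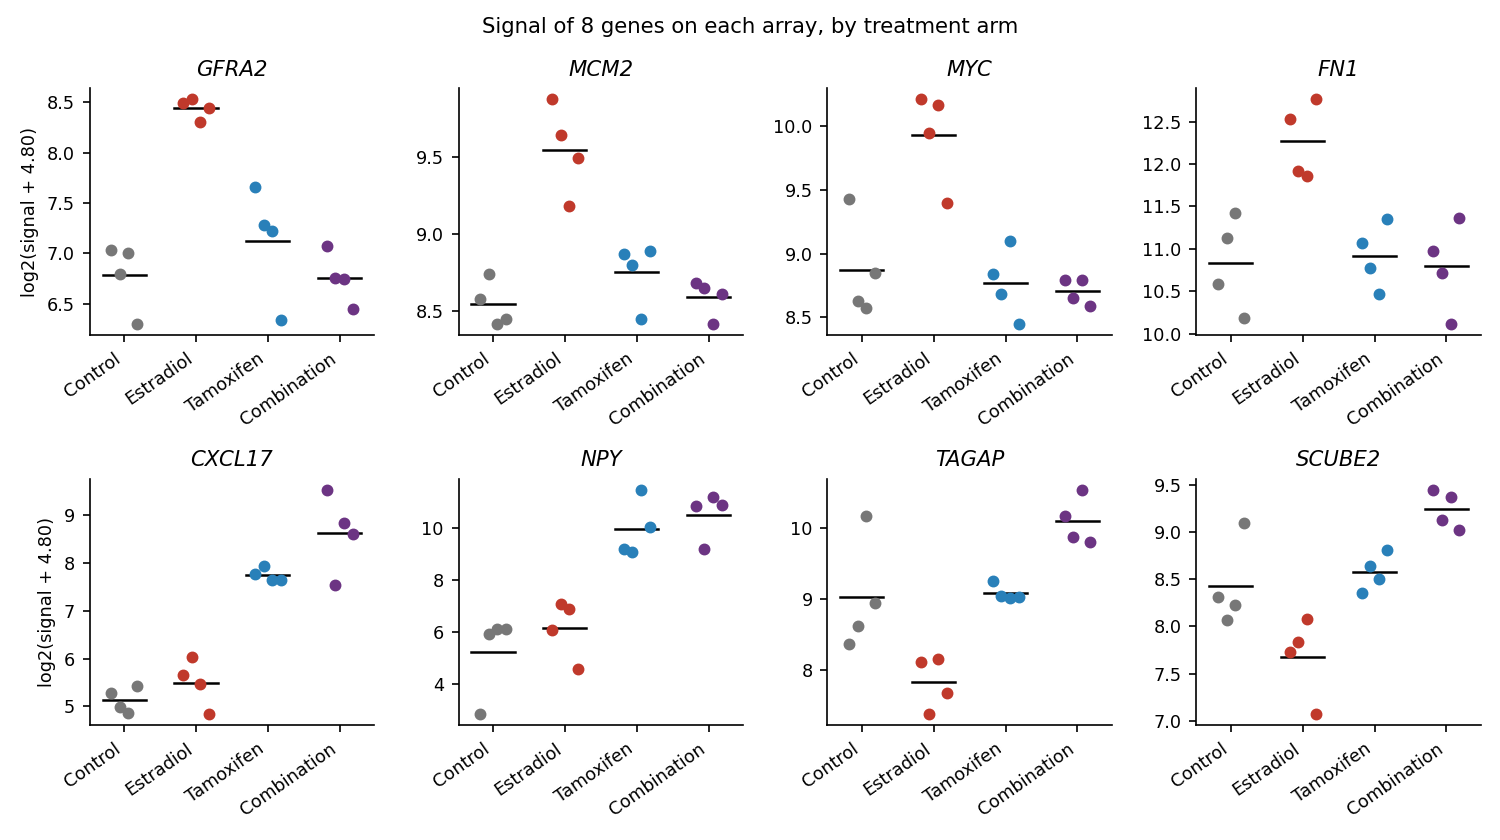
Points are the log2(signal + 4.80) of single arrays, 4 in each treatment arm, and lines the arm means, for 4 genes that fell (upper panels) and 4 that rose (lower panels) with the combination against estradiol. In the upper panels the estradiol arm stands above the other arms on average; CXCL17 and NPY are high in both arms with tamoxifen, while the mean of TAGAP is highest with the combination, at 10.09, and lowest with estradiol, at 7.83.

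Of the remaining genes among the 15 highest, LOC722305, an uncharacterized locus in this annotation, was at 3.11 (SE 0.62, adjusted p = 0.0305, in 2 of 8 fits), but its other 2 probe sets stood at -1.39 and -1.49, so its direction is uncertain. ADGRG2, an adhesion receptor of reproductive tract epithelium, was at 4.89, 8.15, 5.74 and 6.93 with estradiol, a wide spread, and at 8.64, 8.39 and 8.74 in combination 1, 2 and 4, with combination 3 highest. It rose by 2.27 (SE 0.51, adjusted p = 0.0430), with 1 of 8 fits passing, that without estradiol 2. PADI2, which converts arginine to citrulline in proteins, rose by 2.02 (SE 0.42, adjusted p = 0.0347) and GPC3, a cell-surface proteoglycan, by 1.86 (SE 0.43, adjusted p = 0.0495), passing in 2 fits (without estradiol 2 or 3) and in 1 (without estradiol 3). CFD, complement factor D, rose by 1.72 (SE 0.36, adjusted p = 0.0358), the only call among 10 measured complement genes, and ITGA8, an integrin chain of mesenchymal cells, by 1.68 (SE 0.36, adjusted p = 0.0374); they passed in 3 and 2 of the 8 fits. C11H12orf56, POPDC3, NRIP3, CPAMD8 and TM7SF2 rose by 2.14, 1.56, 1.47, 1.44 and 1.37, with adjusted p from 0.0186 to 0.0432, and passed in 4, 5, 6, 2 and 2 of the 8 fits. TM7SF2, a sterol reductase, was the only call among 16 measured genes of cholesterol synthesis, whose median change was -0.16.

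CXCL17 was the only call among 16 measured mucous and secretory genes, whose median change was 0.61. LYZ, lysozyme, at 1.52 (adjusted p = 0.132), the trefoil factor gene TFF3 at 1.52 (adjusted p = 0.0520) and the mucin gene MUC1 at 1.02 (95% interval 0.19 to 1.86, adjusted p = 0.210) did not pass. DMBT1, a mucosal scavenger glycoprotein, stood the other way, at -1.67 (95% interval -2.64 to -0.69, adjusted p = 0.0824), and AGR2, which folds mucins, at 0.11 (adjusted p = 0.912). Outside that list, 3 glycosyltransferase genes that rose were chosen after their values were seen, while B3GNT5, given above, fell by 1.39. The 3 rose as follows: B4GALT1, a galactosyltransferase, by 0.73 (SE 0.12, adjusted p = 0.0137, in 7 of 8 fits), ST3GAL5, which makes the ganglioside GM3, by 1.05 (SE 0.18, adjusted p = 0.0178, in 5 of 8) and GCNT2, which branches poly-lactosamine chains, by 1.27 (SE 0.24, adjusted p = 0.0247, in 3 of 8).

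Immediate early genes, which cells switch on within minutes of a stimulus, were mixed. Of 18 measured, 2 rose and 1 fell, with a median change of 0.26. CCN2, a matricellular growth factor also known as CTGF, rose by 0.77 (SE 0.17, adjusted p = 0.0411), while its other 2 probe sets stood at -0.12 and -0.52. DUSP1, a phosphatase that switches off MAP kinases, was at 10.29, 10.69, 10.50 and 10.32 with estradiol and at 11.20, 10.81, 11.22 and 11.50 with the combination. The arms did not overlap, though estradiol 2 and combination 2 lay close, and DUSP1 rose by 0.73 (SE 0.16, adjusted p = 0.0423). CCN2 passed only without estradiol 3, and DUSP1 without combination 2 and without estradiol 3. The member that fell was MYC, described above. FOS at 0.72 (SE 0.31, adjusted p = 0.270) and ZFP36 at 1.36 (SE 0.42, adjusted p = 0.123) did not pass, although neither gene's arms overlapped. Among 25 measured genes of the WNT pathway the ligand gene WNT11 alone passed, at 1.04 (SE 0.22, adjusted p = 0.0381), in 1 fit, that without estradiol 3.

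Genes that estrogen induces did not share one direction. Of 25 measured, MYC fell, 0 rose and 24 did not pass, where 1.33% of all genes passed. By sign, 13 were negative and 12 positive, and the median change was -0.13. PGR was at 10.46, 10.35, 10.58 and 10.81 with estradiol and at 9.80, 10.28, 10.17 and 9.48 with the combination. All combination arrays lay below the estradiol arrays, combination 2 only just, and the change of -0.62 (95% interval -1.09 to -0.14) had adjusted p = 0.186. GREB1, an estrogen receptor cofactor, was at 10.46, 9.71, 10.63 and 10.23 and then at 8.71, 10.03, 8.67 and 9.85. Combination 2 and 4 reached into the estradiol range, and the change of -0.94 (95% interval -1.55 to -0.33) had adjusted p = 0.113. The receptor gene ESR1 stood at -0.14 (95% interval -0.58 to 0.31, adjusted p = 0.809). The growth factor gene IGF1 was at -0.20 (-0.57 to 0.17, adjusted p = 0.633), EGFR, the epidermal growth factor receptor gene, at -0.37 (-0.79 to 0.041, adjusted p = 0.370), the hedgehog ligand gene IHH at 0.69 (0.047 to 1.34, adjusted p = 0.278) and the transcription factor gene MYB at 0.45 (-0.21 to 1.11, adjusted p = 0.520). These intervals still allow changes near 1 log2 unit for several of the genes.

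Of 14 measured genes of the progesterone response and decidua, MAOA, monoamine oxidase A, rose by 0.87 (SE 0.16, adjusted p = 0.0217, in 3 of 8 fits), while IL15 and HAND2 fell. IL15, the cytokine that sustains uterine natural killer cells, was at 8.29, 8.85, 8.76 and 8.59 with estradiol and at 7.64, 7.31, 6.86 and 7.33 with the combination. The arms did not overlap, and it fell by 1.34 (SE 0.22, adjusted p = 0.0136), 2.53-fold, in all 8 fits. None of 14 measured T and NK cell markers passed, where 142 of all 10705 genes (1.33%) did. A negative sign was seen in 12 of the 14, and the median change was -0.45. GZMB, granzyme B of cytotoxic cells, was at 10.15, 10.74, 9.42 and 9.50 and then at 9.38, 7.61, 7.21 and 8.52. All combination arrays were lower, combination 1 only just, and the change of -1.77 (95% interval -2.69 to -0.86) had adjusted p = 0.0568. NKG7, a granule protein of the same cells, was at -1.04 (adjusted p = 0.0659), and GZMA, another granzyme, at -0.14 (adjusted p = 0.849).

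Of 12 lists of cell type markers, 11 held no gene that passed, where 142 of all 10705 genes (1.33%) did. At that share most lists this short would hold none, so the count does not show that cell types were unchanged. The epithelium list had a median change of -0.073 over 15 genes, and its keratin gene KRT8 was at -0.50 (95% interval -1.35 to 0.36, adjusted p = 0.596). The epithelium score averaged 0.27 ± 0.49 (SD, n = 4) with estradiol and 0.24 ± 0.18 (SD, n = 4) with the combination. Ciliated cell markers had a median change of 0.53 over 11 genes, and endothelium markers of 0.20 over 21. Smooth muscle markers had a median change of 0.67 over 17 genes, with estradiol 4 far below all other arrays of both arms; MYH11 was at 1.35 (adjusted p = 0.407), and at 0.18 without that array. The mitosis score was 1.38, 1.14, 0.30 and 1.37 with estradiol and -0.064, -0.19, -0.44 and 0.14 with the combination, so that estradiol 4 was as high as estradiol 1 in division genes.

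**Figure D4:**
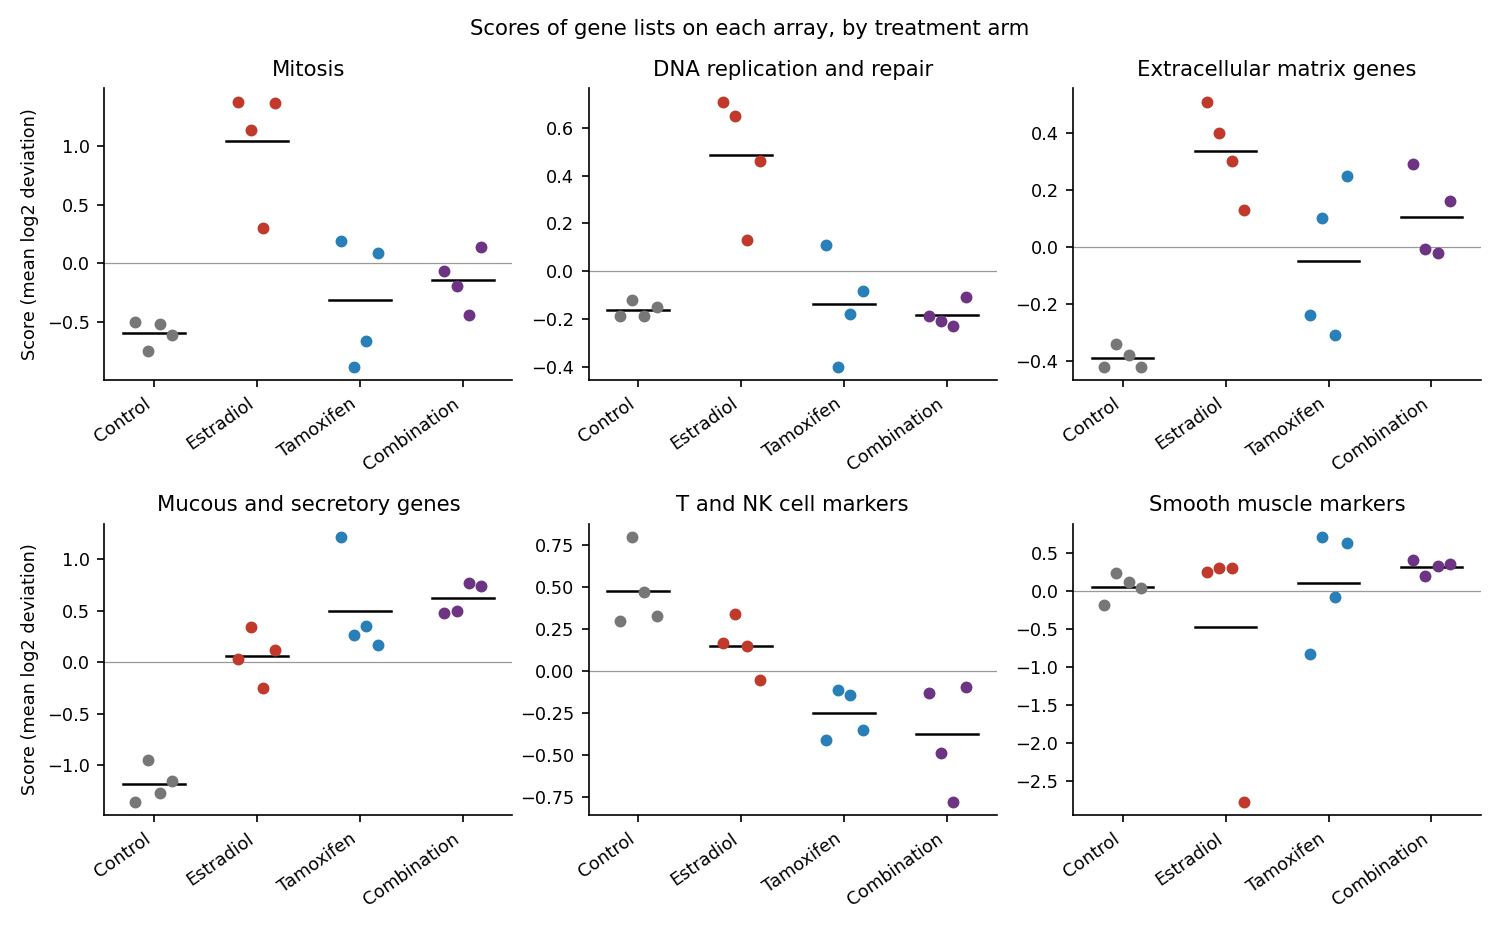
Each point is the score of a gene list on 1 array, the mean log2 deviation of its measured genes from their means over all 16 arrays, with lines for the arm means. Mitosis and replication scores of the 4 estradiol arrays lie above those of the 4 combination arrays, with estradiol 3 lowest of its arm, and estradiol 4 stands apart at -2.78 in smooth muscle markers.

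The arms without estradiol set tamoxifen alone against control in other animals, and no array enters both this difference of means and that above. Each gene's estimate of spread, however, came from the same fit for both comparisons. A gene of low spread passes more readily in both, so the calls shared between them are not independent. The log2 3' to 5' ratio of actin, a sign of RNA integrity, did not overlap between the control and tamoxifen arms. It was 1.02, 0.933, 0.959 and 0.76 in control 1 to 4 and 0.534, 0.573, 0.504 and 0.474 in tamoxifen 1 to 4. Its part in any value that uses the control arm was not tested. Between tamoxifen and control limma called 920 genes higher (8.59%) and 818 lower (7.64%). Of the 48 genes that rose when tamoxifen was added to estradiol, 34 had a positive sign with tamoxifen alone and 20 were called higher (41.7%), with 2 called lower. Of the 94 that fell, 40 had a negative sign and 54 a positive one, 7 were called lower (7.45%) and 14 higher (14.9%). Over all genes tested, 48% had a positive and 52% a negative sign with tamoxifen alone, against 70.8% positive in the 48 and 42.6% negative in the 94. The median change with tamoxifen alone was 0.43 in the first group and 0.072 in the second, against -0.018 over all genes. The median of arm means of the 94 lower genes was 8.26 with control, 9.11 with estradiol, 8.23 with tamoxifen and 8.26 with the combination, and that of the 48 higher genes 9.29, 8.77, 9.62 and 10.04; the estradiol and combination levels are those by which these genes were selected.

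Individual genes fall into distinct patterns across the 4 arms. NPY had a mean of 5.24 with control, 6.15 with estradiol, 9.95 with tamoxifen and 10.52 with the combination, and CXCL17 of 5.14, 5.50, 7.75 and 8.63. Both rose with tamoxifen alone, by 4.71 (SE 0.76, adjusted p = 0.00172) and 2.61 (SE 0.33, adjusted p = 0.000422). Their difference between the effect of tamoxifen with and without estradiol, the interaction, which passed in 1212 genes (11.3%), was -0.34 (SE 1.08, adjusted p = 0.884) and 0.52 (SE 0.47, adjusted p = 0.524). GFRA2, MCM2 and FN1 were high with estradiol alone: GFRA2 had means of 6.78, 8.44, 7.13 and 6.75 in the same order, MCM2 of 8.55, 9.55, 8.75 and 8.59, and FN1 of 10.83, 12.27, 10.92 and 10.80. Their interactions were -2.04 (SE 0.34, adjusted p = 0.00348), -1.16 (SE 0.20, adjusted p = 0.00472) and -1.56 (SE 0.43, adjusted p = 0.0334), a test that shares its arrays with the comparison above.

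Other genes differed from both patterns. PCOLCE rose with tamoxifen alone, by 1.29 (SE 0.21, adjusted p = 0.00192), and fell when tamoxifen was added to estradiol, with means of 8.31, 10.61, 9.59 and 9.24 and an interaction of -2.66 (SE 0.30, adjusted p = 0.00119). LOXL2, KDELR3 and MEST also rose with tamoxifen alone, by 1.10, 1.05 and 1.51. TAGAP had means of 9.02, 7.83, 9.08 and 10.09, with a change of 0.062 (adjusted p = 0.918) with tamoxifen alone and an interaction of 2.19 (SE 0.43, adjusted p = 0.00752). IL15 fell both ways, by 1.05 (SE 0.22, adjusted p = 0.00670) with tamoxifen alone. Between the combination and tamoxifen alone limma called 0 of 10705 genes, with 396 (3.7%) at an unadjusted p under 0.05.

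**Figure D5:**
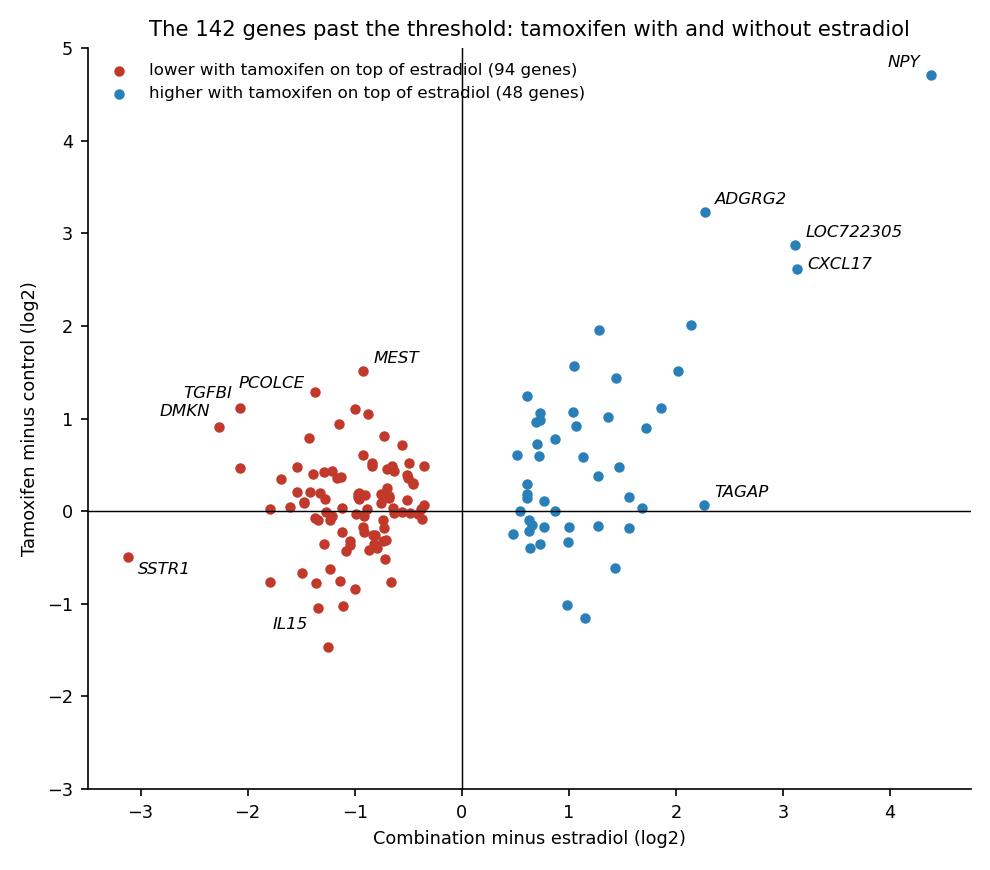
Each point is 1 of the 142 genes past the threshold; the horizontal axis is its combination minus estradiol change and the vertical axis its tamoxifen minus control change, both as differences of mean log2 signal. Of the 48 genes to the right 34 lie above 0, led by NPY at 4.71, while the 94 to the left divide into 54 above and 40 below 0. Over all genes tested, 48% had a tamoxifen minus control change above 0.

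The brightest probe set does not always speak for a gene. Of the 142 genes, 83 had a single tested probe set, and the other 59 had 97 further ones, of which 83 shared the sign of the brightest, 14 did not, and 22 passed themselves, 0 of these with the opposite sign. Another 57 genes passed only through a dimmer probe set, and 6 of them are given here, chosen after their values were seen. PENK, which encodes the opioid precursor proenkephalin, was at 9.33, 7.43, 7.35 and 9.81 with estradiol and at 4.66, 4.12, 4.12 and 3.65 with the combination on that probe set, a change of -4.34 (SE 0.74, adjusted p = 0.0165), while its brightest stood at 0.85 (adjusted p = 0.272). OLFM4, a glycoprotein of crypt and gland epithelium, was at 3.80, 5.51, 4.08 and 4.00 and then at 8.49, 8.71, 6.11 and 7.98, a change of 3.47 (SE 0.58, adjusted p = 0.0155) against -0.052 on the brightest. In both genes the arms were fully apart on the dimmer probe set. On the brightest, PENK had the opposite sign without passing, and OLFM4 hardly changed. Which probe set measures the cynomolgus transcript was not tested.

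The chemokine gene CXCL12 stood at -1.81 (SE 0.25, adjusted p = 0.00495) against -0.13 on its brightest probe set, and PTTG1 at -1.57 (SE 0.30, adjusted p = 0.0250) against 0.52. SERPINH1, the collagen chaperone HSP47, at -1.28 (SE 0.17, adjusted p = 0.00460) and the protease gene MMP11 at -2.20 (SE 0.48, adjusted p = 0.0385) had brightest probe sets of the same sign, at -0.59 and -1.52.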

How the data were processed

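RNA of macaque endometrium was hybridised to 16 one-colour Affymetrix rhesus macaque arrays, 4 per arm. The authors deposited linear signal intensities for 52865 probe sets; MAS5, Expression Console and GCOS are listed in the submitters' processing notes, and their versions and the scaling target are not given in the sources used here. The trimmed mean (2% off each end) of each array's deposited intensity was 250.0, so the arrays had been scaled to a common level, which removes any difference in total RNA, and median signals ran from 58.7 to 70.3. Arrays give no read depth, and 4 arrays an arm limit the precision.

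Signals were taken to log2(signal + 4.80), the pseudocount being the 10th percentile of all values, which understates the change of dim genes. The 99 control probe sets and the dimmest 40% of the rest by mean were left out. The remaining 31659 were fitted with limma 3.58.1 (R 4.3.3) on all 16 arrays with a variance trend and Benjamini-Hochberg adjustment. The platform annotation, used with its symbols as given, pairs 24956 probe sets with 1 symbol, 361 with several and 27449 with none; unmatched ones were not named. Correlations between arrays over probe sets had a median of 0.945 within the estradiol arm, 0.969 within the combination arm and 0.951 between them; estradiol 4 correlated with the other estradiol arrays at a median of 0.928 (lowest 0.908). The named genes were the 15 highest and 15 lowest called changes without overlap of the arms, up to 4 members of each gene list by smallest p, a preset group such as ESR1 and MKI67, and genes stated in the text to be chosen after their values were seen. The comparison, the 42 gene lists and their members were chosen with earlier results of these data known. On simulated data for this comparison, with 200 of 31659 probe sets changed, the fit recovered 68% of log2 changes of 1 and 91% of log2 changes of 2, with 13 false calls. The simulated noise was drawn independently for each probe set and array, without odd arrays such as estradiol 4. These rates therefore need not hold for the real arrays. Alternatives were other pseudocounts, filters, normalization and probe set rules, fewer arrays, a replicate block and leaving out single arrays.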

Additional observations from a re-analysis of the deposited data

Results flagged for a closer look

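One array stood away from the other 3 of its arm, by Dixon's test at the 95% level, in 15 of 286 tests of genes and list scores named in the text. At this level chance alone flags about 5% of tests, so the number of flags is near what chance gives.

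In the estradiol arm, estradiol 3 was lowest for CCNB1 at 7.33, KIF4A at 5.99, MEST at 10.71 and TOP2A at 7.06. Estradiol 4 was lowest for MYH11 at 8.42, for the smooth muscle score at -2.78, the stroma score at -0.10 and the score of estrogen-induced genes at 0.076. Estradiol 1 was highest for SEC24D at 10.22.

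In the combination arm, combination 2 was highest for ADAMTS19 at 9.21 and lowest for NPY at 9.18, combination 3 was lowest for CENPF at 7.03, and combination 1 was highest for COL5A2 at 11.67. Combination 4 was highest for FOS at 8.86 and for MCM5 at 8.95.

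The effect of tamoxifen with estradiol differed from its effect without in 31 of the 65 genes named that passed. The test was limma's interaction term at an adjusted p under 0.05, which 1212 of all 10705 genes (11.3%) met. It uses the same combination and estradiol arrays by which the 65 genes were called, so a higher share follows in part from that choice. The difference was most negative, in log2 units, for DMKN and TGFBI, both at -3.18, PCOLCE at -2.66, IL1A at -2.55, MEST at -2.43, KIF4A at -2.23, LOXL2 at -2.10, GFRA2 at -2.04 and ADAMTS19 at -2.02. It was -1.93 for KDELR3, -1.79 for B3GNT5, -1.64 for OLFML2B, -1.63 for KIF23, -1.58 for NCAPG, -1.56 for FN1, -1.50 for SPSB2 and -1.42 for KIF2C. Differences nearer to 0 were -1.16 for H19 and MCM2, -1.12 for MYC and CCNE2, -1.07 for BORA, -0.94 for HAND2, -0.92 for SEC24D and -0.84 for FKBP10. It was positive for TAGAP at 2.19, POPDC3 at 1.74, SCUBE2 at 1.41, DAPK1 at 1.32, DUSP1 at 1.09 and GRB10 at 0.94.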

How the results depend on the processing

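Signs were steadier than calls: no gene that passed changed its direction under any alternative run, but the 142 genes past the threshold became 82 with no filter on dim probe sets, 31 with only the 8 arrays of both arms and 18 to 462 without single arrays. The genes whose arms did not overlap, 1118 of them, became 1335 to 2341 without single arrays, where fewer arrays have to separate, and 1746 without estradiol 4 and tamoxifen 1 together. That pair, low in smooth muscle transcripts, was chosen after seeing the data, and 112 genes were called without it, 55 higher and 57 lower, 70 of them among the 142. With a pseudocount of 1 or 32, quantile normalization, no variance trend, the mean of all probe sets or the dimmest 60% left out, 137, 182, 157, 105, 165 and 158 genes were called. Of 65 named genes that passed, 64 passed under quantile normalization, 42 with no filter, 22 with only the 8 arrays and from 16 to 64 without single arrays. The cause of these shifts was not tested.

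Counts of list members moved as follows. With no filter they were 3 for mitosis, 1 each for replication, G1, immediate early, uterine development and matrix genes, and 0 for steroid metabolism, stroma, cholesterol and WNT genes. With only the 8 arrays they were 1 each for mitosis, replication, G1, immediate early and keratinized genes, and 0 for steroid metabolism, uterine development, matrix, complement and cholesterol genes. With no variance trend they were 3 for replication, 1 for immediate early and uterine development genes and 0 for steroid metabolism, stroma and cholesterol genes. With the dimmest 60% left out they were 2 for mitosis and WNT genes, 1 for G1, keratinized and chemokine genes and 0 for mucous genes. The mean of all probe sets gave 3 for estrogen-induced and stroma genes, 2 for mucous and WNT genes, 1 for immediate early and 0 for steroid metabolism genes. A pseudocount of 1 gave 1 for uterine development and 0 for stroma genes, and one of 32 gave 2 for estrogen-induced, mucous and WNT genes. Without estradiol 4 and tamoxifen 1 they were 3 for replication and mucous genes, 2 for estrogen-induced and WNT genes, 1 for mitosis, G1, immediate early, keratinized and uterine development genes and 0 for matrix genes.

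Without single arrays the counts ran from 0 to 13 for mitosis, 1 to 8 for replication, 0 to 5 for matrix, 1 to 5 for progesterone response, 0 to 4 for WNT and stroma, 0 to 3 for estrogen-induced and immediate early, 1 to 2 for mucous, 0 to 2 for G1, keratinized, uterine development and cholesterol, and 0 to 1 for complement and steroid metabolism genes. The replicate numbers are not stated to pair animals, and deviations of same-numbered arrays correlated at 0.0835, 0.033, 0.0396 and -0.089. With a replicate block 125 genes were called, 103 of them among the 142, with 8 for mitosis, 3 for replication, 2 for estrogen-induced, mucous, stroma and WNT genes and 0 for complement and cholesterol genes.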
